A study of Homo sapiens with 6 samples.

Results

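The 7 genes described here encode intermediate filament proteins: the neurofilament light, medium and heavy chains (NEFL, NEFM, NEFH), alpha-internexin (INA), peripherin (PRPH), vimentin (VIM) and nestin (NES). They are 7 of the 56794 named genes in the comparison, chosen as a family by name after results of these data were known. Their 30 transcripts all carried a group mean and a p-value. RNA was sequenced from HEK293 cells, an established human embryonic kidney line, that express luciferase. In the CASP8AP2 mutant cells CRISPR was used to delete CASP8AP2, a gene for a protein of histone pre-mRNA processing, and they were set against the parental line, which expresses luciferase too. There were 3 libraries in each group, grown in medium with serum, and the labels name no drug treatment. The sources used here do not say whether the mutant cells were 1 clone or whether libraries of a group came from separate cultures, so p-values measure the spread between these libraries alone, which may be technical.

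Intermediate filaments are built from rod-shaped proteins that pair as coiled coils and pack into ropes. NEFL, NEFM, NEFH and INA form the mixed filaments of neurons, in which NEFL is the chain that NEFM and NEFH need to assemble, and PRPH joins them in peripheral neurons. VIM forms the filaments of mesenchymal and many cultured cells, and NES joins VIM filaments in neural progenitors. HEK293 cells are known to make neurofilament proteins although they were derived from kidney cultures.

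Values are a length-scaled abundance, so that levels of different genes can be set side by side. The values used are the authors' means over the 3 libraries of a group, to which they had added 1, and that 1 is taken off here. A gene level is the sum over its transcripts. The log2 ratio sets mutant over parental levels with 1 added to each. Both groups sum to 496162 over all genes. Among 14856 genes at 1 or more in either group, the median log2 ratio was -0.01, the quartiles were -0.28 and 0.27, and 3.12% lay at least 1 away from 0. Of the 7 filament genes, 6 reached that level in a group. NEFH did not.

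The library depth was estimated from the abundance that 1 read gives, which is the smallest step between values. It came to 57.5, 15.0 and 13.3 M reads on transcripts for the mutant libraries and 15.3, 11.6 and 9.19 M reads for the parental ones. Which of these is replicate 1, 2 or 3 is not known, so libraries are called the deepest, middle and shallowest of their group. CASP8AP2 itself had an abundance of 15.7 in mutant and 15.9 in parental cells, and the RNA level therefore does not check the label. The log2 ratio ran with GC content across genes (Spearman's rho 0.31 over 14723 genes, which are not independent replicates), and the GC values of the members stand beside the results they touch.

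The members did not differ in a common direction. NEFL was far higher in mutant cells, NEFM and INA were near or at 0 there, and for VIM, NES and PRPH the mutant and parental levels of the same gene were close. Over the 7 members the median log2 ratio was 0.10, with 4 above 0 and 3 below it. A log2 ratio of at least 1 in size was held by 3 of them. In mutant cells the order of levels was VIM, NEFL, NES, PRPH, NEFM, NEFH, INA. In parental cells it was VIM, NEFL, NEFM, INA, NES, PRPH, NEFH. These ratios are the values by which the members are described and are not a test, since the family was picked with this contrast known.

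**Figure D1:**
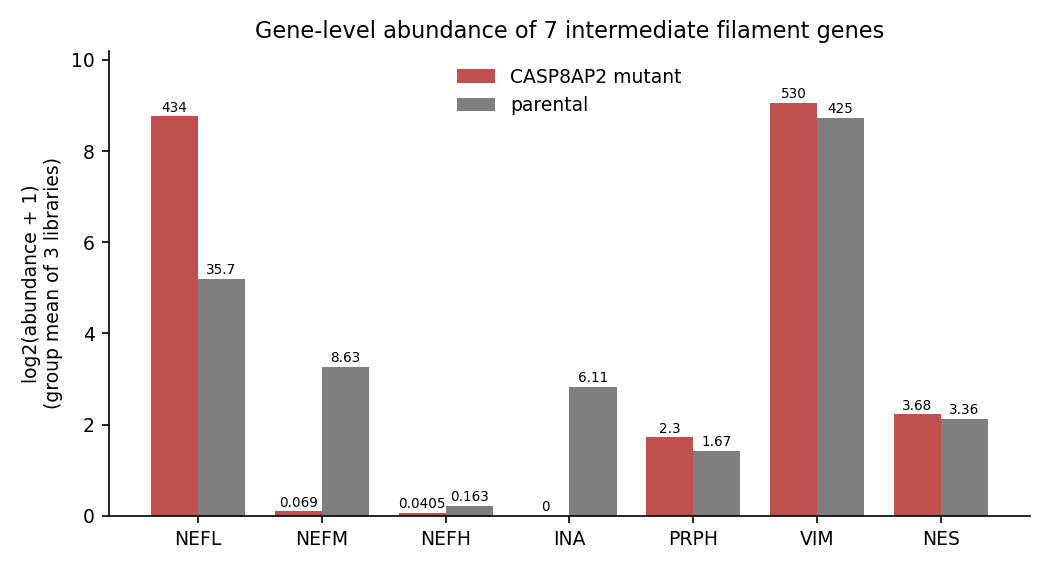
Abundance of each gene as log2(abundance + 1), with the mutant bar (red) left of the parental bar (grey) and the abundance itself above each bar; bars are group means of 3 libraries, drawn without error bars. NEFL stands at 434 in mutant and 35.7 in parental cells, NEFM at 0.0690 and 8.63, and INA at 0 and 6.11.

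NEFL, the light chain on which neurofilament assembly depends, lies on the minus strand of chromosome 8 (24950955 to 24957110, build hg38). Its abundance was 434 in mutant cells and 35.7 in parental cells, a ratio of 12.1 and a log2 ratio of 3.57. In bulk RNA, a different share of cells that express a gene and a different amount of RNA per cell cannot be told apart. That made it the gene of rank 151 by abundance in mutant cells and of rank 2076 in parental cells. It also brought NEFL to 0.818 of the VIM level in mutant cells, against 0.0840 of it in parental cells. Among the 14856 genes, 2 had a higher log2 ratio, OR1C1 and TRBC2, which are named because their values were seen. Neither was above 0 in the parental group.

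All 4 NEFL transcripts were higher in mutant cells, but not by the same amount. NEFL-203, a protein-coding transcript, stood at 169 in mutant and 2.94 in parental cells. NEFL-201, also protein-coding, stood at 140 in mutant and 16.2 in parental cells. NEFL-202, which keeps an intron, had 74.8 in mutant and 4.02 in parental cells, and the protein-coding NEFL-204 had 49.9 in mutant and 12.5 in parental cells. NEFL-203 thus made up 39.1% of the NEFL sum in mutant cells and 8.25% in parental cells, while NEFL-201 made up 32.2% in mutant and 45.3% in parental cells. These transcripts share exons, and the reads were divided among them by the authors' quantification.

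**Figure D2:**
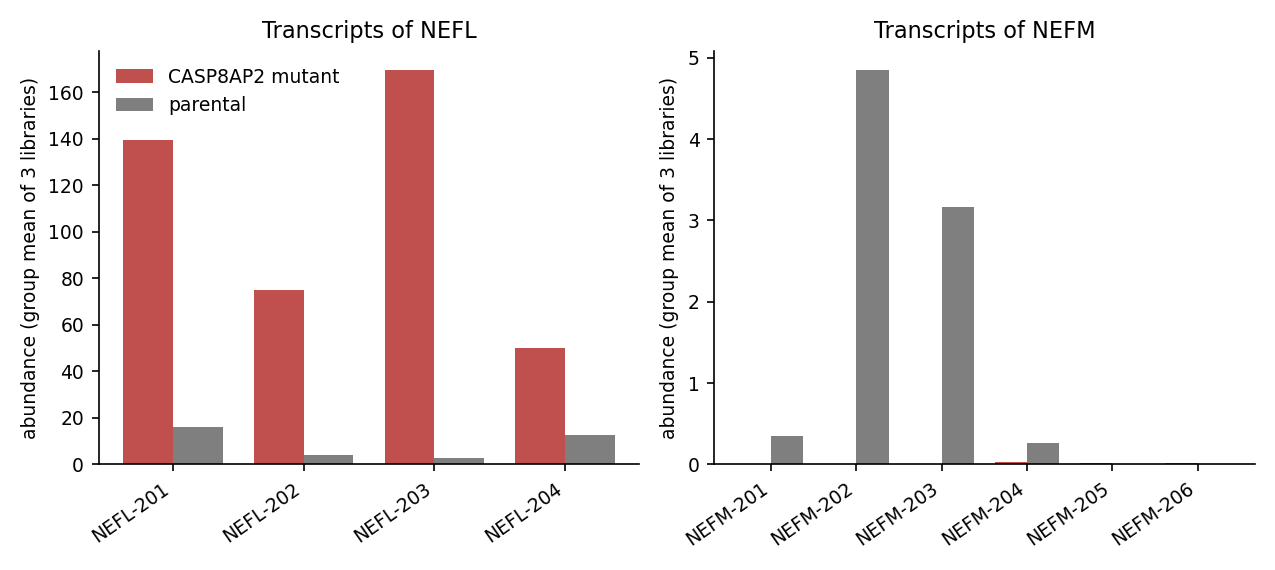
Abundance of each annotated transcript of NEFL (left panel) and NEFM (right panel), mutant in red left of parental in grey, as group means of 3 libraries on separate linear axes. Every NEFL transcript is higher in mutant cells, led by NEFL-203 at 169 against 2.94, while NEFM-202 and NEFM-203, at 4.84 and 3.17 in parental cells, are under 0.01 in mutant cells.

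The differences in the NEFL transcripts stood beside a wide implied spread between libraries. Single-library values of NEFL were not recovered, since only single-transcript genes were tried. The deposited p-value of a transcript carries its spread: it equals an equal-variance comparison of log2(abundance + 1) with 4 degrees of freedom. Taking the log of each group mean for the mean of the logs, the p-values of 0.0209 for NEFL-203, 0.0447 for NEFL-201, 0.0565 for NEFL-202 and 0.111 for NEFL-204 in the authors' deposited table imply standard deviations within groups of about 1.80, 1.29, 1.80 and 1.14 on the log2 scale. The same reckoning for VIM-201 gives 0.19. For the genes with known libraries, it gave 0.88 for INA against a measured 0.80, 0.20 for NES against 0.25 and 0.0763 for NEFH against 0.0753. The reckoning can also fail. For PRPH-203, a transcript of PRPH at 1.62 in mutant and 1.28 in parental cells, it implied more spread than 3 libraries with such means can have. How far it errs for the NEFL transcripts is not known. By this reckoning the implied spread was far wider for each NEFL transcript than for VIM-201, and which libraries were high or low is not known. How reads were divided among the NEFL transcripts may be part of it, and the spread of the NEFL sum was not obtained.

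NEFM, the medium chain, is the neighbour of NEFL on chromosome 8 (plus strand, 24913012 to 24919098), and the genes are 31.9 kb apart. It lay the other way. Its abundance was 0.0690 in mutant cells and 8.63 in parental cells, a ratio of parental over mutant of 125 and a log2 ratio of -3.17. Of the 14856 genes, 7 had a lower log2 ratio. Behind these values stood between 6 and 30 reads over the 3 mutant libraries, against between 824 and 1375 over the 3 parental ones.

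In parental cells the NEFM sum came mainly from 2 protein-coding transcripts, NEFM-202 (56.1%) and NEFM-203 (36.7%). The small mutant sum lay mostly in others: NEFM-204 (41.5%), NEFM-206 (22.2%) and NEFM-205 (21.5%). NEFM-202 had 0.00291 in mutant and 4.84 in parental cells, and NEFM-203 had 0.00665 in mutant and 3.17 in parental cells. NEFM-201 (0.000694 in mutant, 0.347 in parental cells) also had an unadjusted p under 0.05. Because the mutant mean is so close to 0, the parental mean and the deposited p-value together limit what single parental libraries can have held. For NEFM-202, the lowest parental library lay between 1.77 and 2.78 and the highest between 6.53 and 8.96. For NEFM-203, the lowest lay between 1.34 and 2.01 and the highest between 4.15 and 5.48. Within these limits all 3 parental libraries lay above the mutant mean. The limits only restate the deposited mean and p-value of a gene chosen with this contrast known. The share of all genes with such a gap was not counted, so nothing is read from it. An antisense gene overlaps the start of NEFM, AF106564.1, at 0.0882 in mutant and 0.255 in parental cells, and reads of an overlapping pair cannot be told apart without the strand.

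The next protein-coding genes outward lay near 0 in log2 ratio or were not detected. ADAM7, before NEFM, was listed at 0 in both groups. DOCK5, a guanine nucleotide exchange factor gene 228 kb after NEFL, had 2.62 in mutant and 2.39 in parental cells, and in the authors' deposited table its p was 0.866. The longest run of identical bases shared by transcripts of NEFL and NEFM was 16. Between any 2 members the longest was 25, for NEFM with INA and for INA with PRPH.

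INA encodes alpha-internexin, which appears in neurons before the neurofilament triplet and assembles with it. It has 1 annotated transcript, INA-201 on the plus strand of chromosome 10 (103277163 to 103290351), and its group means could be turned back into whole reads. No mutant library held a read of INA. The parental libraries held 507, 66 and 315 reads from the deepest to the shallowest, which are abundances of 8.30, 1.43 and 8.59. The groups did not overlap, but the middle parental library was 6.03 times below the highest one. The share of all genes whose groups do not overlap, as for INA and NEFH, was not counted, so nothing is read from this. INA was thus 0 in every mutant library and 6.11 ± 4.06 in parental cells (SD, n = 3), a log2 ratio of -2.83. Taking 3 reads per library as the limit that a count of 0 allows, the mutant limit was 0.0399, and the parental mean was 153 times that. This leaves out the parental spread, and the middle parental library, at 1.43, lay much nearer to the limit.

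INA varied widely between parental libraries. Its standard deviation of log2(abundance + 1) was 1.13, against a median of 0.32 over 538 single-transcript genes with a parental mean of at least 1 whose libraries could be recovered (a set not matched to the level of INA), and 6 of these 538 exceeded INA. Of the 538, 7 had a mutant mean under 0.1 of the parental mean, and in 6 of those, INA among them, the middle parental library was the lowest. Over all 538 genes it was the lowest in 37.0%. These 7 genes were picked after their values were seen, by being high in parental cells alone, and include INA itself. The shares are therefore not a test, and nothing is read from them. Without the middle parental library the log2 ratio of INA was -3.24. The genes beside INA were PCGF6, a Polycomb group gene, at 17.5 in mutant and 16.4 in parental cells, and RPEL1, at 0.454 in mutant and 1.09 in parental cells. The log2 ratio of RPEL1 was -0.52, and in the authors' deposited table its unadjusted p was 0.00685. The nearest protein-coding genes of the other members, RFPL1, THOC5, TUBA1C, TROAP, TRDMT1, ST8SIA6, BCAN and CRABP2, had log2 ratios between -0.21 and 0.20.

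**Figure D3:**
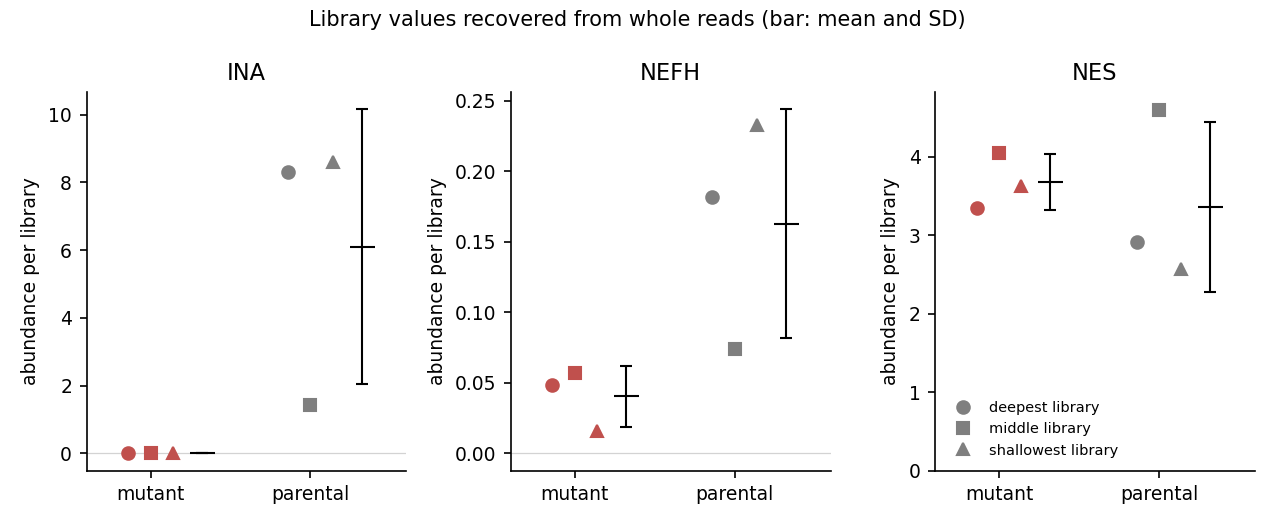
Abundance in each library for INA, NEFH and NES, recovered from whole reads, with mutant libraries (red) left of parental ones (grey), a different symbol for the deepest, middle and shallowest library of a group, and a black bar for the mean and SD of 3. INA is 0 in all mutant libraries and 8.30, 1.43 and 8.59 in parental ones, while the NES groups overlap.

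NEFH, the heavy chain, was barely detected in either group. It is a gene of chromosome 22 (plus strand, 29480230 to 29491390) with 1 transcript. Its reads were solved together with those of an overlapping antisense gene, which was at or near 0. The mutant libraries held 13, 4 and 1 reads from the deepest to the shallowest, or abundances of 0.0484, 0.0570 and 0.0161. The parental libraries held 13, 4 and 10 reads, or 0.182, 0.0738 and 0.233. Its abundance was 0.0405 ± 0.0216 in mutant and 0.163 ± 0.0813 in parental cells (SD, n = 3 each), and the lowest parental library stood just above the highest mutant one. At these read numbers the shallowest mutant library rests on a single read. Summed over the neuronal chains NEFL, NEFM, NEFH and INA, the abundance was 434 in mutant and 50.6 in parental cells, of which NEFL held 99.97% in mutant and 70.6% in parental cells.

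VIM, the vimentin gene of mesenchymal and cultured cells, was the most abundant member in both groups. It lies on the plus strand of chromosome 10 (17228259 to 17237593). Its abundance was 530 in mutant and 425 in parental cells, rank 128 among all genes in mutant and 161 in parental cells, with a log2 ratio of 0.32. VIM-201, the main protein-coding transcript, carried 91.8% of the sum in mutant and 92.3% in parental cells, at 487 in mutant and 392 in parental cells. That difference of 0.31 on the log2 scale compares with an implied standard deviation of 0.19. The other VIM transcripts at 1 or more, VIM-203, VIM-205, VIM-206 and VIM-207, were all higher in the mutant mean, by log2 ratios of 0.52, 0.53, 0.32 and 0.12. The antisense genes that overlap VIM were AL133415.1, at 12.3 in mutant and 9.53 in parental cells, and VIM-AS1, at 1.01 in mutant and 1.31 in parental cells, and whether counting used the strand is not given in the sources used here.

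NES, the nestin gene of neural progenitors, lies on the minus strand of chromosome 1 (156668763 to 156677397) and has 1 transcript. Its 3 mutant libraries held 1325, 418 and 332 reads, which are abundances of 3.35, 4.05 and 3.63. Its parental libraries held 306, 366 and 162 reads, or 2.91, 4.60 and 2.57. The groups overlapped, and the highest value belonged to the middle parental library, the one that was lowest for INA. NES averaged 3.68 ± 0.352 in mutant and 3.36 ± 1.09 in parental cells (SD, n = 3 each), so the difference was smaller than the spread among parental libraries.

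PRPH, the peripherin gene of peripheral neurons, lies on the plus strand of chromosome 12 (49293252 to 49298686) and was low in both groups. Its abundance was 2.30 in mutant and 1.67 in parental cells, a log2 ratio of 0.31. Most of this was PRPH-203, which keeps an intron and held 70.3% of the sum in mutant and 76.7% in parental cells, at 1.62 in mutant and 1.28 in parental cells. The deposited p of PRPH-203, from the equal-variance comparison of log2(abundance + 1), was 0.957. The means of the logs thus differed little beside their spread, and the size of that spread is not known. Between 137 and 592 reads in mutant and between 62 and 103 in parental cells stood behind the PRPH sum. The protein-coding PRPH-201 had 0.347 in mutant and 0.179 in parental cells. Genes with as much GC as PRPH-203 (60.2%) had a median log2 ratio of 0.20, and those like NES-201 (59.3%) one of 0.14, so GC content moved with these small differences. With that trend taken out, the log2 ratio of PRPH was 0.10 and that of NES was -0.04. For NEFL, NEFM, INA and VIM the same median lay between -0.02 and 0.07.

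No member transcript was called in the authors' deposited table, in either direction. Of the 30, 0 had an adjusted p there under 0.05, where 0.0221% of the 140552 tested transcripts passed, and the smallest adjusted p of a member was 0.511, for NEFM-203. At an unadjusted p under 0.05 the count was 6 of 30, where 5.79% of all transcripts passed. The 2 higher ones, on a side that 3.3% of all transcripts reached, were NEFL-201 and NEFL-203. The 4 lower ones, on a side that 2.48% reached, were NEFM-201, NEFM-202, NEFM-203 and INA-201, with p-values of 0.0299, 0.00690, 0.00622 and 0.0167. Nothing is read from these counts, because the members were chosen with this contrast in view.

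**Figure D4:**
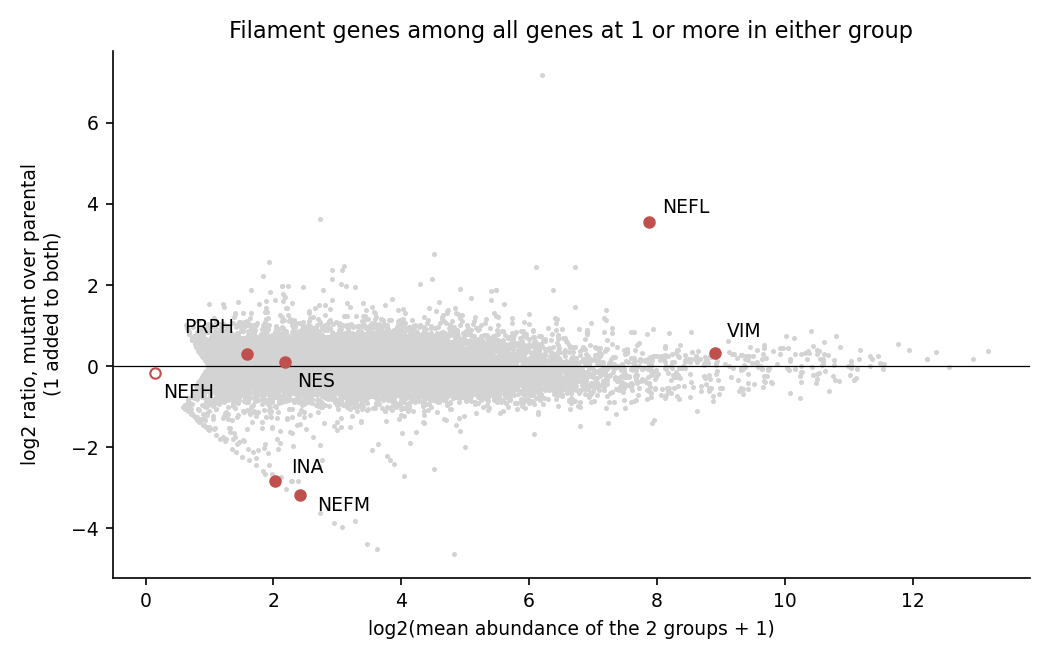
Log2 ratio of mutant over parental (1 added to both) against log2 of the mean abundance of the groups plus 1, for 14856 genes (grey points); red points are the filament genes, and NEFH, under the level of 1, is drawn open. NEFL (3.57) lies above and NEFM (-3.17) and INA (-2.83) lie below the band of genes in which VIM, PRPH and NES fall.

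The genes most like NEFL in level, by distance in the plane of log2 levels over the 2 groups, were CLU at 177 in mutant and 31.9 in parental cells, ATF5 at 213 in mutant and 80.9 in parental cells, and LGALS3BP at 154 in mutant and 55.1 in parental cells. CLU encodes the extracellular chaperone clusterin, ATF5 a stress-linked transcription factor and LGALS3BP a secreted glycoprotein. None came near the NEFL log2 ratio, the nearest being CLU with 2.44. Likeness over 2 group means is a weak measure.

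Promoter sequences from RefSeq (build GRCh38.p14, 250 bases before to 50 after the start) were matched for 4 members, and those of INA, VIM and PRPH are shown because INA had no read in mutant cells, VIM was high in both groups and PRPH was low in both. Capitals mark matches on either strand to a GC box (GGGCGG) or a TATA box (TATAAA). INA is at chr10:103276888-103277187, VIM at chr10:17227991-17228290 and PRPH at chr12:49294897-49295196, all on the plus strand. The PRPH window starts 1645 bases inside the gene span given above, since RefSeq and GENCODE place its start differently.
INA: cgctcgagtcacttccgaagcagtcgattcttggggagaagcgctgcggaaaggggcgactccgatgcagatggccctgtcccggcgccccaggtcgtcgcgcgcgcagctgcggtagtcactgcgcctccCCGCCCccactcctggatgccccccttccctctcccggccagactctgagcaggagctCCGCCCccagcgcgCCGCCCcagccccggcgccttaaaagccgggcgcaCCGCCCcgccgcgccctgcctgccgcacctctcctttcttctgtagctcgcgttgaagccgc
VIM: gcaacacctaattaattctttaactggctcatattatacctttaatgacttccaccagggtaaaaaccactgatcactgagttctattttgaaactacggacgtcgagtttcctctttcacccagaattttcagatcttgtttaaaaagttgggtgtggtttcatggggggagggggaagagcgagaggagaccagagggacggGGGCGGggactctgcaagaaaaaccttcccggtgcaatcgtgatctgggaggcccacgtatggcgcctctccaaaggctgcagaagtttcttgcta
PRPH: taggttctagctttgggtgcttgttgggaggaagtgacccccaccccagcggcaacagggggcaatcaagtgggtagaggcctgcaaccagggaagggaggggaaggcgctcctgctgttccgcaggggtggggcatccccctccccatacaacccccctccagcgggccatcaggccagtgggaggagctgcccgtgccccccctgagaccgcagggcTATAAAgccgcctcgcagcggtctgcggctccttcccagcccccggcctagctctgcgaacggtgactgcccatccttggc

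The INA window held 4 GC boxes, that of VIM held 1, that of NES 4 and that of PRPH none, while 45.0% of the 35116 promoters of this length held at least 1. PRPH was the only one of the 4 with a TATAAA match, at position -31 from the start, and 11.5% of all promoters had one. None held a CCAAT match, which 34.6% of promoters had. GC content was 71.3% for INA, 67.0% for PRPH, 60.3% for NES and 48.0% for VIM, against a median of 58.7%. CpG pairs numbered 35 in INA, 14 in NES, 13 in PRPH and 10 in VIM, against a median of 14. A match of letters is a description and shows neither a bound factor nor a cause.

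Other intermediate filament genes at 1 or more in either group were all on the lower side. The list of 16 holds keratins, nuclear lamins, lens filament genes, synemin (SYNM) and the related IFFO1 and IFFO2. Of these, 10 were measured at 1 or more, and all 10 had a log2 ratio below 0, with a median of -0.17. Among all 14856 genes, 49.4% had a log2 ratio above 0. Listed genes under the level of 1 are not part of this count, and with no filter the median was -0.10. Nothing is read from the shared direction. LMNB1, which encodes lamin B1 of the nuclear envelope, had 45.0 in mutant and 74.9 in parental cells. KRT8, a keratin of simple epithelia, had 37.3 in mutant and 70.6 in parental cells, and its partner KRT18 had 51.8 in mutant and 57.7 in parental cells. BFSP1, a lens filament gene, had 0.577 in mutant and 1.24 in parental cells. It entered these counts only through its parental level. Of the 10, 0 reached an adjusted p under 0.05 by the authors' deposited table, while 3 lower and 0 higher had an unadjusted p under 0.05. Among all 14856 genes, that p was held by 8.63% on the lower and 5.17% on the higher side.

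Transcription factors that act on filament genes gave the single call of all the lists. SOX11, a factor of neural progenitors, fell to 0.00260 in mutant cells, against 3.35 in parental cells. In the authors' deposited table its adjusted p was 0.00110. Its mutant libraries had 1, 1 and 0 reads, and its parental libraries had 541, 426 and 332. In abundance the parental libraries were even, at 3.28, 3.41 and 3.36, including the middle one that was low for INA. Over all genes at 1 or more, 0.0404% were called by their most abundant transcript. JUN and FOS, the AP-1 subunits, stood at 255 in mutant and 142 in parental cells and at 321 in mutant and 170 in parental cells. TFAP2A, a neural crest and epithelial factor gene, had 17.0 in mutant and 23.3 in parental cells. POU3F2, a neural factor that acts on the nestin enhancer, had abundances of 3.41, 1.61 and 8.46 in mutant libraries, against 2.95, 7.01 and 1.72 in parental libraries, so its groups overlapped. Of this list 22 genes were measured, with log2 ratios around a median of 0.17, 14 above 0 and 8 below it. An unadjusted p under 0.05 was held by 3 higher and 2 lower ones, and by 5.17% higher and 8.63% lower over all genes.

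Genes for proteins that bind neurofilament messages lay mostly lower. RALY, an RNA-binding protein gene, had 48.1 in mutant and 69.6 in parental cells. HNRNPK, which binds neurofilament messages, had 197 in mutant and 271 in parental cells, and YWHAQ, a 14-3-3 gene, had 72.4 in mutant and 144 in parental cells. Over 9 measured genes the log2 ratio had its median at -0.47, 2 above 0 and 7 below it, and 0 were called. At an unadjusted p under 0.05 there were 3 lower and 0 higher, where 8.63% and 5.17% of all genes at 1 or more lay.

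Neuronal cytoskeleton genes other than the neurofilaments did not share the high NEFL value. Their highest log2 ratio was 0.76, for STMN4, at 1.62 in mutant and 0.542 in parental cells. GAP43, a growth cone protein gene, had 0.986 in mutant and 2.23 in parental cells. STMN1, a tubulin-binding protein gene, had 384 in mutant and 622 in parental cells, MAP2, of dendrites, 0.990 in mutant and 1.16 in parental cells, and TUBB2A, a tubulin gene, 20.0 in mutant and 23.3 in parental cells. The 17 measured genes had a median of -0.24, 5 above 0 and 12 below it, with 0 called. At an unadjusted p under 0.05 there were 2 lower ones, a side that 8.63% of all genes at 1 or more reached. Neuronal genes that the repressor REST keeps silent in other cells, of which 8 were measured, had a median of -0.34 with 2 above 0 and 6 below it. There GDAP1, a mitochondrial fission gene of neurons, had 1.90 in mutant and 6.74 in parental cells, SYP, of synaptic vesicles, 0.458 in mutant and 1.76 in parental cells, SNAP25, of vesicle fusion, 1.35 in mutant and 2.81 in parental cells, and TUBB3, the neuronal tubulin gene, 3.46 in mutant and 4.96 in parental cells.

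Genes that anchor, phosphorylate, move or clear filaments had 0 calls, where 0.0404% of all genes at 1 or more were called. Of all those genes, 8.63% lower and 5.17% higher had an unadjusted p under 0.05. Cytolinker genes had a median log2 ratio of -0.06 over 7 measured genes, with 0 at an unadjusted p under 0.05. MACF1 had 32.7 in mutant and 32.8 in parental cells, SPTBN1 17.9 in mutant and 25.4 in parental cells, DST 31.8 in mutant and 30.1 in parental cells and SPTAN1 51.1 in mutant and 53.9 in parental cells. Kinases and phosphatases of filaments had a median of -0.14 over 17 genes, with 1 higher and 2 lower at that p: PAK1, at 26.5 in mutant and 20.3 in parental cells, PPP2CA, the PP2A catalytic subunit gene, at 56.3 in mutant and 72.6 in parental cells, and ROCK2, at 5.42 in mutant and 7.39 in parental cells. GSK3B had 4.01 in mutant and 5.51 in parental cells. Transport motors had a median of 0.21 over 8 genes, with 6 above 0 and 2 below it and 0 at that p. KLC2 stood at 34.1 in mutant and 24.4 in parental cells, KLC1 at 61.4 in mutant and 42.9 in parental cells, KIF5A, the neuronal kinesin that carries neurofilaments, at 1.36 in mutant and 1.03 in parental cells, and KIF5B at 27.6 in mutant and 31.9 in parental cells.

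The 11 genes of filament turnover and folding had their median at 0.08, with 1 higher and 1 lower at an unadjusted p under 0.05. HSPB1, a small heat shock protein that binds neurofilaments, had 43.3 in mutant and 96.0 in parental cells, and BAG3, of chaperone-assisted autophagy, 21.7 in mutant and 15.2 in parental cells. HSPB8, the BAG3 partner, had 1.01 in mutant and 10.1 in parental cells, with a p of 0.122. KLHL24, an E3 ligase adaptor gene, had 2.62 in mutant and 4.19 in parental cells. Across the 9 lists, 108 distinct genes were measured, 1 was called, and 5 higher and 15 lower had an unadjusted p under 0.05. Among all 14856 genes, 0.0404% were called, and 5.17% higher and 8.63% lower held that unadjusted p. The lower side was thus the larger one over all genes too, and nothing is read from the list counts.

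**Figure D5:**
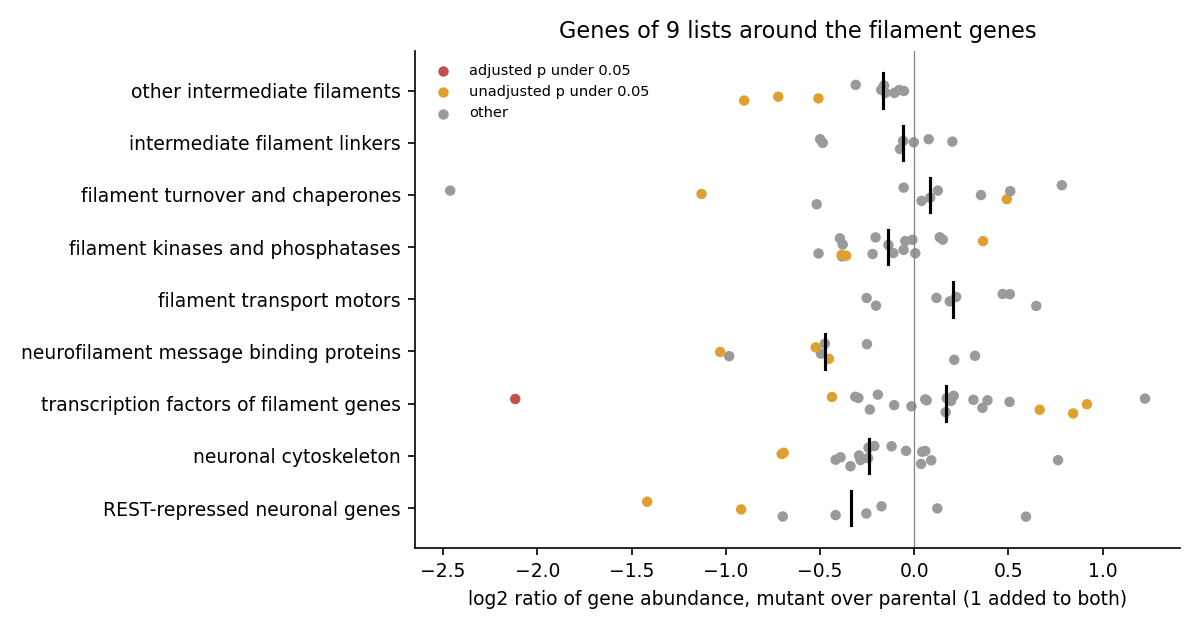
Log2 ratio of mutant over parental (1 added to both) for each measured gene of 9 lists, with a black line at the list's median; colours mark the p-value that the authors gave its most abundant transcript. The only gene past an adjusted p of 0.05 is SOX11, at -2.12. All 10 measured genes of the list of other intermediate filaments lie below 0, of which BFSP1 reached 1 in parental cells only.

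Neuron, adrenal medulla, blood and muscle markers had low sums in both groups. The 10 neuron markers summed to 13.2 in mutant and 17.9 in parental cells, with 4 of the 10 at 1 or more in mutant and 6 in parental cells. These counts differ through SYP and GAP43, and GAP43 missed that level narrowly in mutant cells, at 0.986. TUBB3 was the highest of them in parental cells, and SYT1, of synaptic vesicles, was the highest in mutant cells, at 4.51 in mutant and 4.06 in parental cells. RBFOX3, the gene of the neuronal nuclear antigen NeuN, had 2.36 in mutant and 1.94 in parental cells, and DCX and ELAVL4 were listed at 0 in both groups. The part of such cells in the NEFL values was not tested. The 6 adrenal medulla markers summed to 1.17 in mutant and 0.860 in parental cells, led by PNMT at 1.07 in mutant and 0.633 in parental cells, with TH, the first enzyme of catecholamine synthesis, listed at 0 in both. The 5 blood cell markers summed to 0.461 in mutant and 0.681 in parental cells, led by CD14, and the 5 muscle markers to 2.65 in mutant and 2.34 in parental cells, led by ACTA1.

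Kidney, mesenchymal, epithelial and neural progenitor markers had higher sums. The 6 kidney lineage markers summed to 27.1 in mutant and 27.0 in parental cells, with 3 at 1 or more in mutant and 5 in parental cells. These counts differ through LHX1 (0.910 in mutant, 1.02 in parental cells) and WT1 (0.932 in mutant, 1.06 in parental cells), which lay close to 1 in both groups. The 6 mesenchymal markers summed to 64.4 in mutant and 86.7 in parental cells, led by FN1 at 23.2 in mutant and 43.3 in parental cells. CDH2, COL3A1 and TWIST1 were lower in mutant cells too. COL1A1, at 5.82 in mutant and 2.17 in parental cells, and ZEB1, at 6.31 in mutant and 5.48 in parental cells, were higher. The 5 epithelial markers summed to 90.3 in mutant and 131 in parental cells, nearly all from KRT8 and KRT18. The 5 neural progenitor markers summed to 48.6 in mutant and 36.1 in parental cells, led by MSI1 at 30.5 in mutant and 16.9 in parental cells. MSI1 alone carried that difference: SOX2 had 4.63 in mutant and 5.63 in parental cells, and PAX6 13.5 in mutant and 13.6 in parental cells. The 5 astrocyte markers summed to 16.2 in mutant and 18.9 in parental cells, of which SLC1A3 was the 1 marker at 1 or more in either group.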

How the data were processed

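Per the labels' protocols, total RNA came from RNeasy kits and libraries from the NEBNext Ultra RNA kit with random primers. Per the submitters' processing notes, the tools were bcl2fastq, STAR and Partek and the build was hg38. The sources used here do not give versions, annotation or strand setting. Per the file headers, the authors' deposited score called LSMean is a group's least-squares mean, and its values are those of a length-scaled abundance plus 1. The deposited signal called total counts equals 3 times the sum of both means and was used only to check this. The deposited ratio, p-values and adjusted p-values are also held as scores, since transcripts without a value carry a mark.

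Transcript names, lengths and positions came from GENCODE release 29 on the same build. In transcripts with reads in 1 library of 6, abundance times length repeats in steps, each the size of 1 read. With these steps the group means of single-transcript genes were solved for whole reads per library, within a tolerance of 1e-08. Of 12777 genes tried, 6981 had 1 solution, and all 6981 gave the deposited p-value again within 1e-06. NEFH was solved together with an overlapping antisense gene (tolerance 1e-05). Genes with several transcripts were not tried. On simulated data, 199 of 200 genes were recovered. Python 3.11.15, NumPy 2.4.6, pandas 2.3.3 and SciPy 1.17.1 were used.

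The members, lists and the rule for named genes (every member, each partner gene called or among the 4 smallest p-values of its list, the leading marker of each list, the nearest protein-coding genes and the 3 genes most alike NEFL) were chosen with earlier results of these data known. OR1C1, TRBC2, POU3F2, SYT1, RBFOX3, SYNM, IFFO1 and IFFO2 were named after their values were seen. So were CDH2, COL3A1, TWIST1, COL1A1, ZEB1, SOX2, PAX6, LHX1, WT1, STMN4 and CELSR3. Alternatives were an added 0.1, single or coding transcripts, other scalings, GC correction, filters of 5 or none, and leaving out libraries where they were known. A protein comparison was planned and was not run, and 2 genes that the naming rule picks are not reported here.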

Additional observations from a re-analysis of the deposited data

How the results depend on the processing

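No paired analysis was possible because only group means were deposited and the libraries recovered from them carry no replicate number. Leaving out a library was done for INA, NEFH and NES alone, the members whose libraries were recovered. The log2 ratio then ran from -3.24 to -2.55 for INA, from -0.21 to -0.12 for NEFH and from -0.02 to 0.32 for NES, whose sign turned without the shallowest parental library. With the GC trend taken out, NES stood at -0.04, and so did the median of the members, while PRPH stood at 0.10 and NEFH at -0.32. An added constant of 0.1 in place of 1 moved NEFM to -5.69, INA to -5.96 and NEFH to -0.90. With the most abundant transcript alone, NEFL moved to 5.43 and NEFM to -2.54. NEFL stayed above 0 and NEFM and INA below 0 under the added constant, transcript, scaling and GC alternatives, but nothing is read from this. An added constant cannot turn a sign, and the scalings changed values little. The GC trend for these genes lay between -0.02 and 0.07, far smaller than their log2 ratios. The count of members called was 0 in the authors' deposited table at adjusted p-values under 0.05 and 0.01 and by the adjusted p of the factor Type, and 6 at an unadjusted p under 0.05. The single call in the partner lists, SOX11, became 0 under a filter of 5, which SOX11 does not reach, and 20 at an unadjusted p under 0.05. Over all genes at 1 or more, 13.8% held that unadjusted p. Scaling without mitochondrial genes multiplied the mutant values by 1.02. The depth of the mutant libraries sets the limit behind the 0 for INA, the few reads in both groups limit NEFH, and read limits cover counting error only.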
